A study of Mus musculus with 4 samples.

Results

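Suppressors of cytokine signalling (Socs1, Socs2, Socs3 and Cish), the transcription factors Stat3, Stat5a and Stat5b, the kinases Jak1 and Jak2, and Csf3r, the receptor for granulocyte colony-stimulating factor (G-CSF), were examined in mouse bone marrow neutrophils with and without the microRNA miR-125a. These 10 genes were taken by symbol from 18193 genes with a named probe set, and all 10 had at least 1 probe set. Their 25 probe sets (groups of short probes that each report on a transcript) ranged from 1 each for Socs1, Cish and Csf3r to 6 for Socs2. The 4 groups were miR-125a-/- neutrophils given lipopolysaccharide (LPS, the bacterial cell wall component sensed by Toll-like receptor 4) for 3 h, miR-125a+/+ neutrophils given LPS for 3 h, unstimulated miR-125a-/- neutrophils and unstimulated miR-125a+/+ neutrophils, hereafter KO and WT. All mice were C57BL/6 and 8 weeks old, and neutrophils were isolated with magnetic beads and kept in medium with serum. RNA of 3 experiments was pooled for each group and hybridised to 1 Affymetrix array, so every value below comes from 1 array of pooled RNA. The 4 arrays set the precision: differences carry no replicate error and were not tested. Which cells of the knockout mouse lack miR-125a is not stated. The labels do not settle whether cells without LPS spent the same 3 h in culture, so LPS and time in culture cannot be told apart.

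G-CSF binding brings together G-CSF receptor chains on the neutrophil surface and activates the Janus kinases (JAKs) attached to them, which phosphorylate STAT proteins that then enter the nucleus and bind DNA. Among the genes STATs switch on are the SOCS family members, whose proteins bind the receptor or its kinase and end the signal. In neutrophils and their precursors this loop is known for governing granulocyte output, and SOCS3 is the family member that restrains the G-CSF receptor. Socs3 has been reported as a target of miR-125a, which is the question behind the genotype comparison here, since loss of a repressing microRNA would leave its target less repressed. On these arrays a less repressed transcript would read as higher signal in KO. Only RNA was measured, so repression at the level of protein would not show.

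The microRNA removed in the knockout and its relative miR-125b-5p are shown because a microRNA recognises a transcript chiefly through its seed. The sequences are mouse mature microRNAs from RefSeq on build GRCm38.p6, with the seed (bases 2 to 8) in capitals. The first lies at chr17:17830817-17830840 on the plus strand within the gene Spaca6, and the second at chr9:41581940-41581961 on the plus strand, with an identical copy at chr16:77646279-77646300.
miR-125a-5p: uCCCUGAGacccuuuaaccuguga
miR-125b-5p: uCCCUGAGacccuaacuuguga
The 2 share their first 13 bases, and miR-6367 also shares 13 first bases with miR-125a-5p. This seed is found in 5 of 1679 tabulated mature mouse microRNAs, the others being miR-351-5p, miR-6367 and miR-6394. None of these microRNAs was measured here, and the position of a matching site in the Socs3 transcript was not analysed here.

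The signal floor, a log2 signal of 6.80 below which values were treated as not measured, was exceeded by 16 of the 25 probe sets on all 4 arrays, by 3 more on at least 1 array, and by 6 on none. The brightest probe set, which stood for the gene in counts, lay above the floor on all 4 arrays for 8 of the 10 genes, the exceptions being Socs1 and Socs2. Probe sets of Spaca6, the gene that spans miR-125a, reached at most a log2 signal of 6.24, which left no measured transcript with which to check genotype. All 8 neutrophil markers examined were above the floor on every array, with a log2 of their summed signal between 18.02 and 18.34. Of the other cell types' marker lists, the monocyte and macrophage list summed to 15.39 in LPS-treated KO cells and 15.48 in LPS-treated WT cells, against 14.51 in both unstimulated pools, with C1qa and C1qb below the floor on every array. Erythroid markers summed to 10.13 and 10.20 in LPS-treated KO and WT cells, against 12.01 and 11.24 in unstimulated KO and WT cells. Of the 7 erythroid markers, 1 was above the floor on all arrays and 2 on none. In these pools fewer cells of a type and less RNA per cell cannot be told apart.

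**Figure D1:**
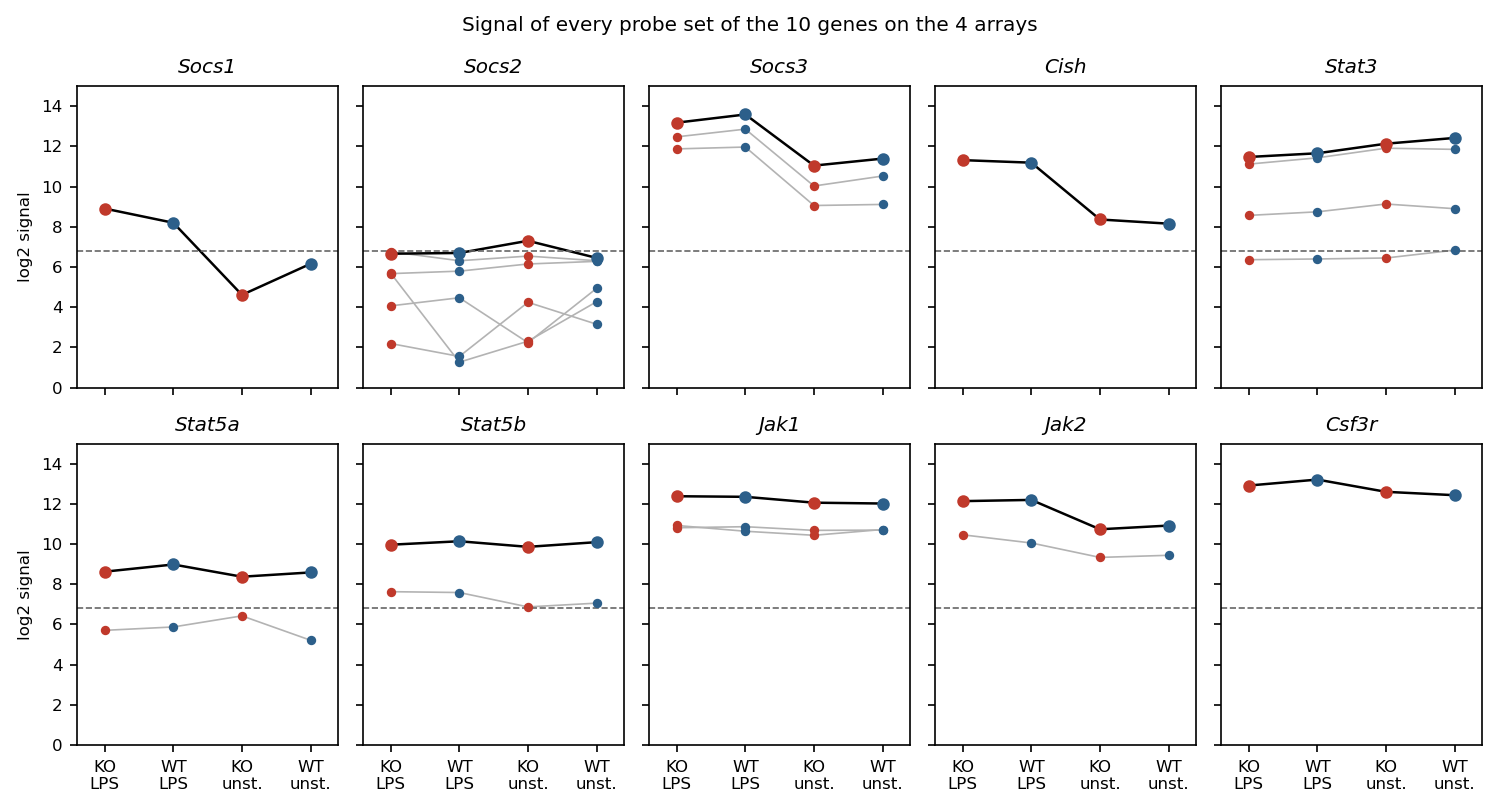
Log2 signal (vertical axis) of every probe set of the 10 genes on the 4 arrays (horizontal axis, LPS-treated KO and WT, then unstimulated KO and WT; red KO, blue WT). The black line joins the brightest probe set of each gene, grey lines the others, and the dashed line is the signal floor of 6.80. Socs3, Cish, Jak2 and Socs1 stand higher on both LPS arrays, while the probe sets of Socs2 lie near or under the floor.

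Genotype was compared first, beginning with Socs3. Its brightest probe set had a log2 signal of 13.18 in LPS-treated KO neutrophils and 13.58 in LPS-treated WT neutrophils, and 11.04 in unstimulated KO neutrophils and 11.39 in unstimulated WT neutrophils. The second had 12.47 in KO and 12.85 in WT after LPS, and 10.02 in KO and 10.52 in WT without it. The third had 11.87 in KO and 11.96 in WT after LPS, and 9.05 in KO and 9.11 in WT without it. Socs3 signal was therefore lower in KO than in WT in every probe set and at both times, by amounts short of 2-fold. A less repressed transcript would have the opposite sign, and the cause of the lower signal was not tested.

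The KO minus WT log2 difference of Socs3 after LPS was -0.41, -0.38 and -0.09 in the 3 probe sets in that order, with a mean of -0.29 ± 0.18 (SD between 3 probe sets). Unstimulated, it was -0.35, -0.50 and -0.05, with a mean of -0.30 ± 0.23 (SD between 3 probe sets). The SD here is between probe sets on the same arrays, not between animals. The 2 larger gaps belong to probe sets whose suffix (_x_at) marks probes that may also match other transcripts, and the probe set without that suffix gave the smallest gap at both times. What part other transcripts play in those gaps was not tested. Across all genes with several probe sets above the floor, the median SD between probe sets of a gene was 0.19 for the KO minus WT difference after LPS and 0.16 unstimulated. In the brightest probe set a difference at least as low as that of Socs3 was seen in 8.28% of the genes measured after LPS and in 9.66% unstimulated. The Socs3 value lay inside the middle 95% of all genes at both times, which ran from -0.65 to 0.70 after LPS and from -0.62 to 0.62 unstimulated.

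None of the other members passed 2-fold between genotypes. After LPS, 0 of 9 measured members were higher and 0 were lower in KO, where 0.615% of 9262 measured genes were higher and 0.626% were lower. Unstimulated, 0 of 9 were higher and 0 lower, where 0.351% of 9401 measured genes were higher and 0.66% were lower. A count of 0 is near this background and is no result about the members. The median difference of the members was -0.17 after LPS, against -0.01 for all genes measured, and -0.18 unstimulated, against 0.00 for all genes. Of the 16 member probe sets above the floor on all 4 arrays, 8 were lower in KO at both times, 2 were higher at both times and 6 had opposite signs. After LPS their differences ran from -0.41 to 0.41, and unstimulated from -0.50 to 0.23.

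The other suppressors were measured with fewer probe sets. Socs1, which inhibits JAK kinases directly and restrains interferon signalling, had a log2 signal of 8.90 in LPS-treated KO cells and 8.19 in LPS-treated WT cells, and was below the floor in both unstimulated pools. Its KO minus WT difference after LPS was 0.71 or 1.63-fold, or 0.36 when the floor was raised to the 75th percentile, and 2.44% of measured genes had a difference at least as high. It was carried by a single probe set and fell short of 2-fold. Cish, a suppressor induced by STAT5, had 11.31 in KO and 11.19 in WT after LPS, and 8.36 in KO and 8.15 in WT without it, giving differences of 0.13 and 0.21, the first of which turned to -0.03 under median scaling. Socs2, a suppressor known for limiting growth hormone signalling, exceeded the floor only in unstimulated KO cells (7.30), against 6.45 in unstimulated WT cells, and stood at 6.66 in LPS-treated KO cells and 6.69 in LPS-treated WT cells. Its other 5 probe sets stayed under the floor on every array, so no direction is given for it.

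Csf3r, the receptor, had a log2 signal of 12.91 in LPS-treated KO cells and 13.21 in LPS-treated WT cells, and 12.60 in unstimulated KO cells and 12.43 in unstimulated WT cells. Its KO minus WT difference was thus -0.30 after LPS and 0.17 unstimulated, with opposite signs at the 2 times. Stat3, the STAT that the G-CSF receptor mainly activates, had differences between -0.31 and -0.18 in its 3 bright probe sets after LPS, and between -0.29 and 0.23 unstimulated. Another Stat3 probe set exceeded the floor only in unstimulated WT cells, at 6.83.

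Stat5a and Stat5b, close relatives that mediate survival signals of myeloid cytokines, lie side by side with Stat3 on chromosome 11 in the GRCm38.p6 gene order. The brighter Stat5a probe set had 8.62 in KO and 8.98 in WT after LPS, and 8.37 in KO and 8.59 in WT without it, differences of -0.36 and -0.21. The second Stat5a probe set was below the floor throughout. The brighter Stat5b probe set had 9.96 in KO and 10.14 in WT after LPS, and 9.86 in KO and 10.09 in WT without it, differences of -0.17 and -0.23. The dimmer Stat5b probe set had differences of 0.04 after LPS and -0.19 unstimulated. Lower Stat5a in KO was thus seen at both times in its measured probe set, although the unstimulated difference turned to 0.50 when both probe sets were averaged, lower Stat5b at both times in 1 of 2, and all of these values lay within the middle 95% of genes.

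Among the kinases, the brightest Jak1 probe set had 12.38 in KO and 12.35 in WT after LPS, and 12.06 in KO and 12.01 in WT without it, differences of 0.03 and 0.04. The 3 Jak1 probe sets disagreed in sign, ranging from -0.05 to 0.29 after LPS and from -0.29 to 0.04 unstimulated. Jak1 serves receptors of interferons and of the IL-6 family, and Jak2 those of myeloid growth factors. The brighter Jak2 probe set had a KO minus WT difference of -0.06 after LPS and -0.18 unstimulated, and the dimmer had 0.41 and -0.11.

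**Figure D2:**
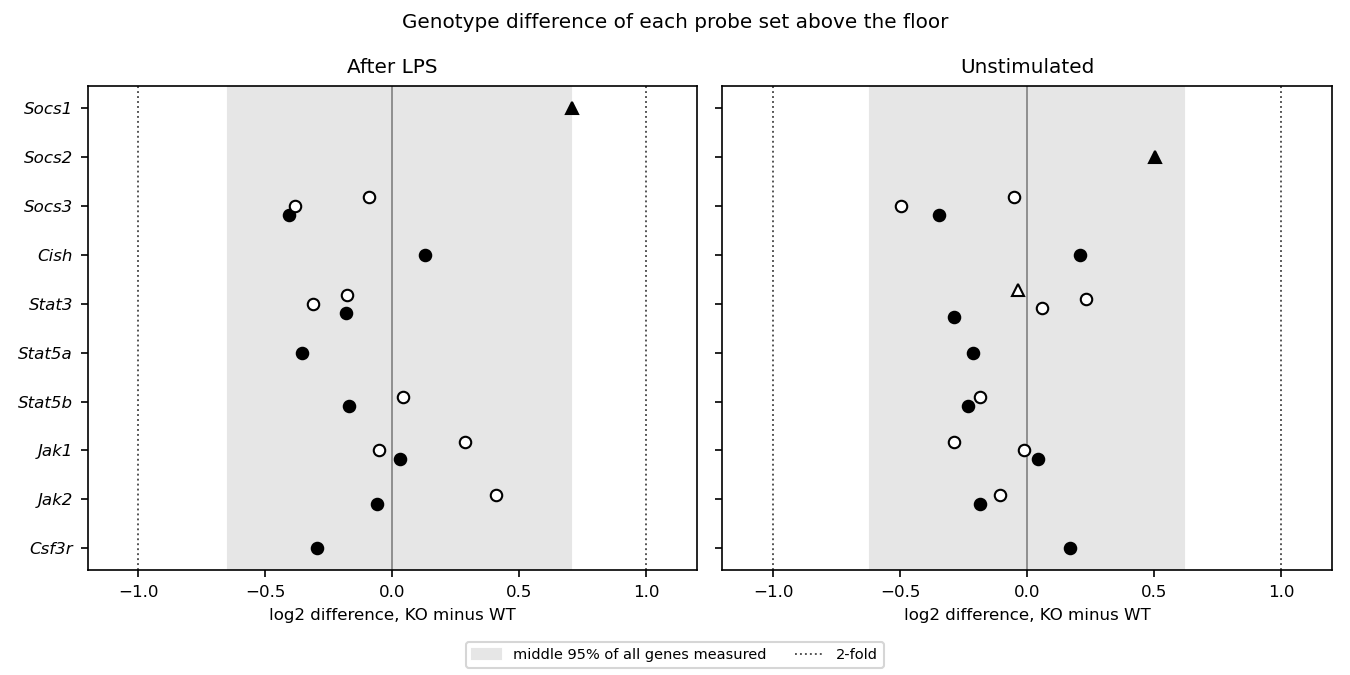
KO minus WT log2 difference (horizontal axis) of each probe set that exceeded the floor, by gene (vertical axis), after LPS (left) and unstimulated (right). Filled symbols are the brightest probe set of a gene, circles were above the floor on all 4 arrays and triangles on fewer. The grey band holds the middle 95% of all genes measured and dotted lines mark 2-fold. All 3 Socs3 points lie left of 0 in both panels, and no point reaches 2-fold.

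Markers of eosinophils, basophils and mast cells differed with genotype in the same arrays. Their summed log2 signal was 10.64 in KO and 11.83 in WT after LPS, and 10.98 in KO and 12.06 in WT unstimulated, led by the eosinophil granule gene Prg2, with 10.06 in KO and 11.29 in WT after LPS. Of the 8 markers in that list, 2 were above the floor on all arrays and 3 on none. At least 2-fold lower in KO were 2 of 4 measured after LPS and 4 of 5 unstimulated, where 0.626% and 0.66% of all measured genes were lower. Cpa3, among those lower unstimulated, exceeded the floor only in unstimulated WT cells (7.88), so the floor fixed its direction. Erythroid markers were the other list that stood apart by genotype without LPS, at 12.01 in KO and 11.24 in WT. Only 1 of the 7 erythroid markers was above the floor on all arrays. The part of these cells in the member differences was not tested.

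LPS was compared next within each genotype. In KO neutrophils 4 of 10 measured members were higher by at least 2-fold and 0 were lower, where 6.62% of 9578 measured genes were higher and 7.99% were lower. In WT neutrophils 4 of 9 were higher and 0 lower, where 7.29% of 9507 measured genes were higher and 9.69% were lower. The 4 genes were Cish, Socs3, Socs1 and Jak2 in both genotypes, 3 suppressors and a kinase, with Socs1 above the floor only on the LPS arrays. The members' median difference was 0.32 in KO and 0.78 in WT, against -0.05 and -0.03 for all genes. These 2 medians are over unlike sets, 10 members in KO and 9 in WT. Taken gene by gene, the median of the KO response minus the WT response was -0.04, against -0.01 for all genes. When poly-A control transcripts set the scale of each array instead, 3 members were higher and 1 was lower in each genotype, because Jak2 dropped under 2-fold and Stat3 passed it downwards. On that scale 314 of all genes were higher and 2574 lower in KO, against 634 and 765 with the deposited scaling, and in WT 340 were higher and 2389 lower, against 693 and 921.

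Cish, the STAT5-induced suppressor, was higher with LPS in both genotypes. Its log2 signal was 11.31 with LPS against 8.36 without it in KO cells, and 11.19 against 8.15 in WT cells. That is 7.74-fold higher after LPS in KO and 8.19-fold higher in WT, and 0.66% of measured genes in KO and 0.70% in WT had differences at least as high. Of the monocyte and macrophage markers, 4 of 6 measured in KO and 4 of 7 in WT were also higher with LPS, and 2 were lower in each. Over all genes 6.62% were higher and 7.99% lower in KO, and 7.29% and 9.69% in WT. Cx3cr1, among the higher markers, exceeded the floor only on the LPS arrays, so the floor fixed its direction. The part of monocytes and macrophages in the members' differences was not tested. Cish rests on a single probe set. Its 2 LPS values lie far above its 2 unstimulated values, whichever genotype is taken.

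Socs3 was higher with LPS in all 3 probe sets. Its brightest probe set was 4.40-fold higher with LPS in KO cells and 4.58-fold higher in WT cells, and the other 2 probe sets gave log2 differences of 2.45 and 2.82 in KO and 2.33 and 2.86 in WT. Over the 3 probe sets the LPS difference averaged 2.47 ± 0.34 in KO and 2.46 ± 0.35 in WT (SD between 3 probe sets). The order of the arrays was the same in all 3 probe sets, with WT LPS highest, then KO LPS, then WT unstimulated, then KO unstimulated. The genotypes were 0.05 to 0.50 apart in that order, and the spread between arrays of a group is not known.

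Socs1 was below the floor without LPS in both genotypes, so its response is a lower bound and has no place in an order of the members. It was measured through the LPS arrays alone, which fixed its direction. It was at least 4.30-fold higher with LPS in KO cells and at least 2.64-fold higher in WT cells. Socs1 shares with Socs3 a short segment, the kinase inhibitory region, that Cish and Socs2 lack. For Socs2 no LPS direction is given. In KO cells its only measured probe set was at 6.66 with LPS, under the floor, against 7.30 without it, and in WT cells both values were under the floor.

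Jak2 was the member outside the suppressor family that passed 2-fold. Its brighter probe set had 12.13 with LPS against 10.73 without it in KO cells (2.64-fold higher), and 12.19 against 10.92 in WT cells (2.42-fold higher). The dimmer probe set had 10.46 against 9.33 in KO cells, a difference of 1.12, and 10.05 against 9.44 in WT cells, a difference of 0.61 that fell short of 2-fold. Over both probe sets the mean difference was 1.26 in KO and 0.94 in WT, so the call in WT rests on the brighter probe set. Jak1, by contrast, had differences of 0.13, 0.32 and 0.49 in KO and of 0.17, 0.33 and -0.09 in WT. On the poly-A scale its brightest probe set was lower after LPS, at -0.29 in KO and -0.23 in WT. Relative to the median of all genes on that scale, these were 0.32 and 0.31.

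Stat3 was lower after LPS in each of its 3 bright probe sets and in both genotypes, short of 2-fold. The brightest had 11.47 with LPS against 12.13 without it in KO cells, and 11.65 against 12.42 in WT cells. The LPS differences over the 3 probe sets ranged from -0.79 to -0.57 in KO and from -0.76 to -0.16 in WT, with means of -0.67 ± 0.11 and -0.45 ± 0.30 (SD between 3 probe sets). Its neighbours did not share this sign on the deposited scale. Stat5a had 0.25 in KO and 0.40 in WT. Stat5b had 0.11 in KO and 0.04 in WT in the brighter probe set and 0.76 and 0.53 in the dimmer. The brighter of each turned negative in both genotypes on the poly-A scale. Relative to the median of all genes on that scale, Stat5a was at 0.25 in KO and 0.37 in WT, and Stat5b at 0.10 and 0.02.

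Csf3r was slightly higher after LPS, with 12.91 against 12.60 in KO cells (1.24-fold) and 13.21 against 12.43 in WT cells (1.71-fold). On the poly-A scale the KO difference turned to -0.30 and the WT difference stayed positive at 0.21. Relative to the median of all genes on that scale, they were 0.31 and 0.75. Under median scaling, which moved the median of all genes by 0.23 in WT, the WT difference was 1.02 and passed 2-fold, or 0.83 relative to the median of all genes.

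**Figure D3:**
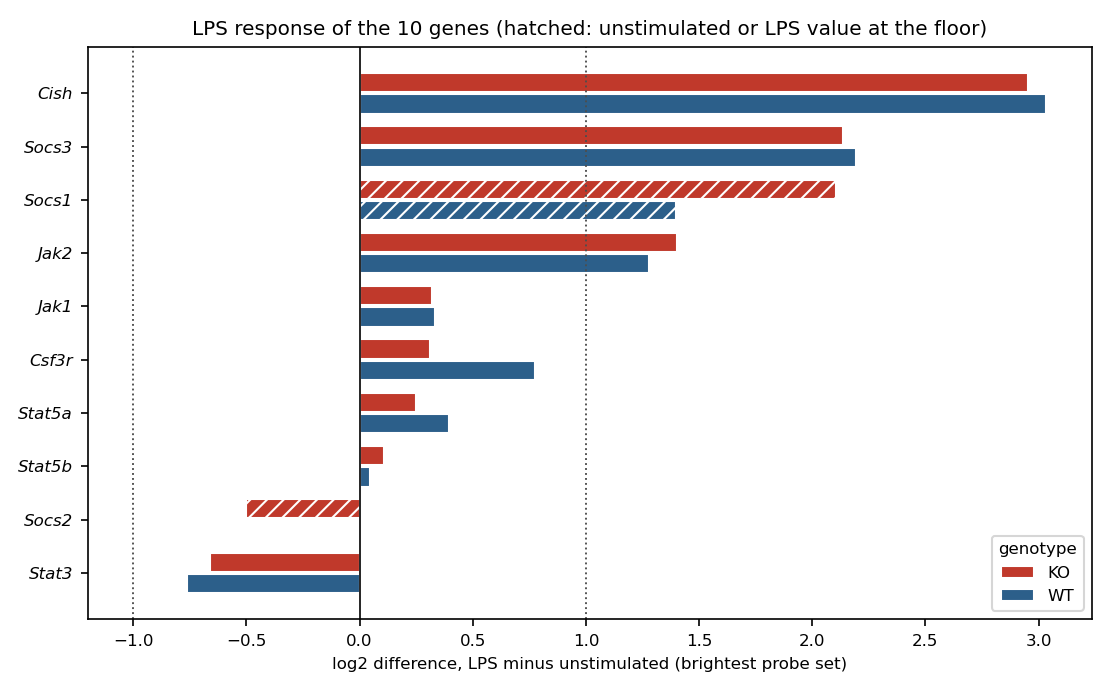
LPS minus unstimulated log2 difference (horizontal axis) of the brightest probe set of each gene (vertical axis), red for KO and blue for WT; hatching marks a difference with a value at the floor and dotted lines mark 2-fold. Cish, Socs3, Socs1 and Jak2 pass 2-fold in both genotypes, and Stat3 is lower after LPS in both. Socs2 has no WT bar because neither WT array exceeded the floor.

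The LPS responses of KO and WT were then set against each other. The difference between them (KO response minus WT response) passed 2-fold for 0 of 10 members in either direction, where 1.23% of 9865 measured genes were higher and 0.872% were lower. For Socs3 it was -0.06, 0.11 and -0.04 in the 3 probe sets, or 0.00 ± 0.09 as their mean (SD between 3 probe sets). It was -0.08 for Cish and 0.12 for the brighter Jak2 probe set. Csf3r had -0.46, the lowest among member probe sets above the floor on all arrays, and 9.03% of genes had a value at least as low. Jak1 had the highest, 0.57, in a probe set whose LPS difference was 0.49 in KO and -0.09 in WT, while the other Jak1 probe sets gave -0.01 and -0.04. Of the 16 probe sets above the floor throughout, 12 were higher after LPS in both genotypes, 3 were lower in both and this 1 differed in sign.

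SOCS genes are textbook STAT targets, so the members' promoter sequences were examined for STAT-type motifs. Whether STATs had a part in the LPS differences was not tested. Windows from 250 bases before to 50 after each start site (RefSeq, GRCm38.p6) were searched for the STAT-type motif TTCNNNGAA, and for TTC and GAA set 4 bases apart, both of which read the same on either strand. A window was tabulated for 9 of the 10 genes, and TTCNNNGAA occurred in the windows of Socs3 and Cish and of no other member. It was found in 8.30% of all 32851 windows of that length. The wider spacing, found in 6.95% of windows, occurred in none of the members' windows. The matches are in capitals below, on the strand of the gene.
Socs3, chr11:117969487-117969545, minus strand: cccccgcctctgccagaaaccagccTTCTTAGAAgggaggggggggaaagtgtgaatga
Cish, chr9:107296654-107296683, plus strand: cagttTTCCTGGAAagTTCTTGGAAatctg
The Socs3 match begins 154 bases before the start site. Cish holds 2 matches, beginning at bases 1 and 12 of the transcript, and 0.457% of all windows held 2 or more. Socs1 and Jak2, also higher with LPS, had no match in their windows. A match describes the letters only and is no evidence of binding.

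Other genes of the pathway were counted by role from lists of 102 symbols, of which 94 matched a probe set with 1 symbol. Between genotypes 0 of 87 measured genes passed 2-fold after LPS and 0 of 80 unstimulated. Among all genes 0.615% were higher and 0.626% lower in KO after LPS, and 0.351% and 0.66% unstimulated. These counts of 0 are near that background and are no result about the pathway. With LPS, 23 of 87 were higher and 9 lower in KO cells, and 26 of 87 were higher and 8 lower in WT cells. Over all genes 6.62% were higher and 7.99% lower in KO, and 7.29% and 9.69% in WT, so the counts of lower genes are near the background. Genes above the floor only with LPS are among the higher ones. On the poly-A scale these splits were 17 higher and 17 lower in KO and 18 higher and 17 lower in WT. Over all genes on that scale 3.21% were higher and 26.3% lower in KO, and 3.54% and 24.9% in WT. The lists were drawn up with earlier results of these data known, so their counts are descriptions.

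Among the cytokines listed as ligands, 6 of 11 measured were higher with LPS and 2 lower in each genotype. Most of the 11, including Csf3, Csf2, Il10 and Il23a, exceeded the floor only on the LPS arrays, so the floor fixed their direction and nothing is read from this count. Csf3, which encodes G-CSF itself, was below the floor unstimulated and at a log2 signal of 9.77 in LPS-treated KO cells and 9.54 in LPS-treated WT cells, which is at least 7.86-fold higher with LPS in KO and at least 6.71-fold in WT. Il6, whose receptor signals through Jak1 and Stat3, stood at 12.87 in KO and 12.40 in WT after LPS, against 5.24 and 6.92 unstimulated. Il10, an anti-inflammatory cytokine that also acts through Stat3, was at 10.28 in KO and 10.12 in WT after LPS, from below the floor. Il12a, a subunit of interleukin-12, had a difference of 3.24 in KO and 3.32 in WT. Csf2, another growth factor for granulocytes, was at least 3.87-fold higher in KO and at least 4.19-fold higher in WT. Csf1, the growth factor of macrophages, was lower, at -1.96 in KO and -2.01 in WT.

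Receptor chains were higher in 5 of 13 measured genes and lower in 0 in each genotype. Over all genes 6.62% were higher and 7.99% lower in KO, and 7.29% and 9.69% in WT. Il10ra had a difference of 3.00 in KO and 3.42 in WT, Csf1r 2.36 and 2.64, Ifngr2 2.05 and 1.92, Il10rb 1.80 and 1.68, and Ifnar1 1.38 and 1.68. These encode both chains of the IL-10 receptor, the M-CSF receptor and a chain each of the interferon-gamma and type I interferon receptors. Csf1r is also in the monocyte and macrophage list given above, and the part of monocytes in its difference was not tested.

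Among other kinases and STATs, 2 of 8 were higher and 1 lower in KO, and 3 of 8 were higher and 1 lower in WT. Tyk2, a JAK of interferon and IL-10 receptors, had 1.82 in KO and 2.32 in WT, and Syk, a kinase of Fc receptors and integrins, had 1.42 and 1.37. Jak3, which pairs with the common gamma chain, was lower, at -1.07 in KO and -1.65 in WT. Inhibitors and phosphatases were higher in 5 of 18 and lower in 1 in KO, and higher in 6 of 18 and lower in 1 in WT. Usp18, which restrains the type I interferon receptor, had 4.92 in KO and 4.34 in WT, Sh2b2, an adaptor that can recruit the ubiquitin ligase CBL, had 2.17 and 2.59, and the phosphatases Ptpn1 and Ptpn11 had 1.24 and 1.02 in KO and 1.13 and 1.28 in WT. Socs6 was the lower gene, at -1.24 in KO and -1.05 in WT. No adaptor passed 2-fold, with 0 of 8 in KO and 0 of 9 in WT. The shares over all genes were 6.62% higher and 7.99% lower in KO, and 7.29% and 9.69% in WT. The counts of lower genes and of adaptors are near these shares and are no result about the lists.

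Of genes known as STAT3 or STAT5 targets, 5 of 29 were higher and 5 lower in KO, where 6.62% and 7.99% of all genes were, and 6 of 28 were higher and 4 lower in WT, where 7.29% and 9.69% of all genes were. The survival kinase Pim2 had 4.19 in KO and 5.01 in WT, the interleukin-1 antagonist Il1rn 3.05 and 3.00, and the stress-response gene Gadd45b 2.31 and 2.54. Ptgs2, an inducible cyclooxygenase, was 9.62-fold higher in KO and 4.01-fold higher in WT. The decoy receptor Il1r2 was lower, at -3.05 in KO and -2.95 in WT. The KO response of Ptgs2 exceeded its WT response by 1.26, with a log2 signal of 12.34 in KO and 11.86 in WT after LPS and 9.07 in KO and 9.86 in WT without it. It was 1 of 88 measured pathway genes past 2-fold in this comparison, near the 1.23% of all genes that were higher, and with the mean over probe sets 0 were higher and 2 lower.

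**Figure D4:**
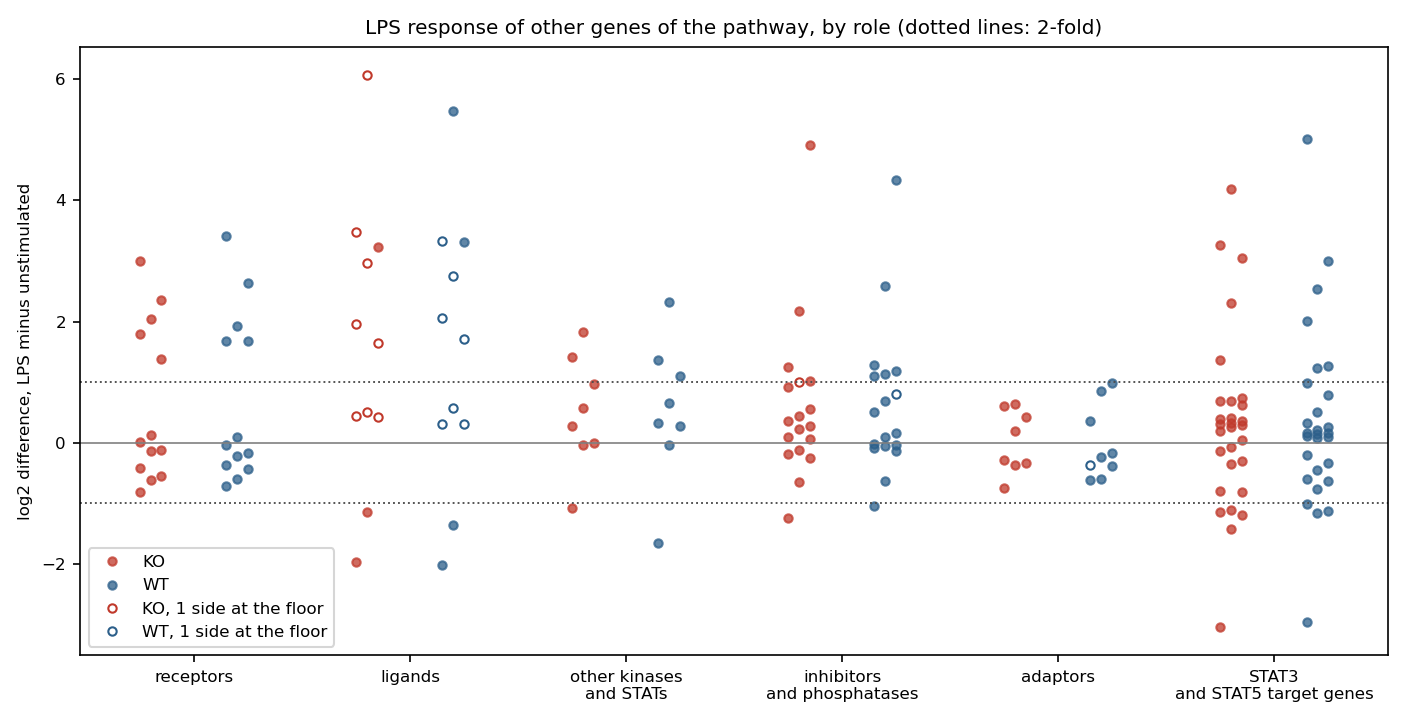
LPS minus unstimulated log2 difference (vertical axis) of the measured genes of the 6 other pathway lists (horizontal axis), red for KO and blue for WT, with open circles where 1 of the 2 signals was at the floor, so that the value is a bound; dotted lines mark 2-fold. Most ligands are open circles, and Usp18 is the highest point among inhibitors and phosphatases, at 4.92 in KO and 4.34 in WT.

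The genes with the pattern most like that of Socs3 over the 4 arrays were found by the distance between log2 values centred on each gene's own mean, among 1862 genes above the floor throughout whose 4 values spanned at least 2-fold. The 5 closest were Hip1r, an endocytic adaptor, at a distance of 0.09, Sqle, an enzyme of cholesterol synthesis, at 0.10, Agtrap at 0.12, Irf9 at 0.16, and the lectin receptor Cd302 at 0.23. Each was higher with LPS, by 1.99 to 2.23 in KO and 2.12 to 2.37 in WT. The genes closest to Csf3r were Adgre5, an adhesion receptor of leukocytes, at 0.19, and Gpank1, Atf6b, Eya3 and Slc25a33 at 0.21 to 0.24. Csf3r itself spanned less than the 2-fold asked of the genes compared, and uncharacterised symbols were passed over. A likeness over 4 arrays holds few degrees of freedom and is a description.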

How the data were processed

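The authors deposited a log2 signal for each probe set of each array, computed by the MAS5 algorithm (named in the submitters' processing notes, with no version). Each array's unlogged signal had the same trimmed mean (2% off each end), 500.003 or 500.004, so arrays had been scaled before deposit, and a change shared by most genes would not show. From 298 to 428 probe sets per array were listed at 0.

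Of 45101 probe sets, 34945 had 1 symbol in the platform annotation, 932 had several and 9211 none listed; the last 2 kinds and controls were left out. Signals below the 60th percentile of all values (log2 6.80, unlogged 111) were raised to it. Genes whose brightest probe set exceeded it on any array of a comparison counted as measured, and those differing by 2-fold (log2 1) or more as called; where only 1 array exceeded it, the difference is a bound. With 1 array per group no p-value or SD between arrays exists, so a call under an alternative is its side of 2-fold.

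The members and lists were chosen with earlier results of these data known. Named genes were all members, up to 5 called genes per pathway list and comparison, and the 5 genes nearest to Socs3 and Csf3r. The calling code was run on simulated data with planted changes larger than 2-fold in genes well above the floor. That run does not bear on smaller differences such as those between genotypes here. Python 3.11.15, NumPy 2.4.6, pandas 2.3.3 and SciPy 1.17.1 were used.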

Additional observations from a re-analysis of the deposited data

How the results depend on the processing

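Each member difference was recomputed under 8 alternatives: quantile normalization, median scaling, scaling on 24 poly-A control probe sets, the floor at the 50th or 75th percentile or none, the mean over probe sets, and without probe sets suffixed _s_at, _x_at or _a_at. Of 354 values, 346 kept their side of 2-fold. Every alternative used the same 4 arrays, so none bears on replicate error. Lower Socs3 in KO held its sign in all 8, from -0.56 to -0.09 after LPS and from -0.36 to -0.05 unstimulated. The floor settings could not move it, since its signal lay above each floor, and it stayed at -0.41 after LPS and -0.35 unstimulated. Cish stayed above 2-fold after LPS in all 8 in both genotypes, and so did Socs3. Because Cish has a single probe set, without such a suffix, the alternatives that change the choice of probe sets could not move it. Jak2 fell under 2-fold on the poly-A scale (0.79 in KO, 0.71 in WT) and in the WT mean over probe sets (0.94). Relative to the median of all genes on the poly-A scale, Jak2 was at 1.40 in KO and 1.25 in WT. Socs1 in KO fell under 2-fold with the floor at the 75th percentile (0.36). Socs1 in WT was then unmeasured, and Socs1 has no probe set without such a suffix. Genotype signs turned for Cish after LPS (-0.03, median scaling), Stat3 unstimulated (0.06, without suffixed probe sets), Stat5a unstimulated (0.50), Jak2 after LPS (0.17) and Jak1 unstimulated (-0.09), the last 3 in the mean over probe sets, and for Jak1 after LPS under median scaling (-0.12). On the poly-A scale, where the median of all genes moved by -0.56 in KO and -0.51 in WT, 1 member was lower after LPS in each genotype, Stat3 (-1.27 in KO, -1.33 in WT; relative to that median -0.66 and -0.79). Under median scaling, which moved the median of all genes by -0.15 for KO against WT after LPS, 0 members were called between genotypes. With no floor, 1 member was lower in unstimulated KO cells and 1 had a higher response in KO (2.26), both being Socs1 through values under the floor. No paired analysis was possible because each group holds 1 array of pooled RNA. Leaving out an array was not possible for the same reason. The floor sets the counts over all genes: after LPS 57 were higher and 58 lower in KO with the floor used, 138 and 118 with it at the 50th percentile, 16 and 24 at the 75th, and 2462 and 1898 with none. Unstimulated, these were 33 and 62, 77 and 105, 11 and 17, and 2149 and 1804. With no floor 3 pathway genes were higher and 1 lower in KO after LPS, and 1 higher and 6 lower unstimulated.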
